A study of Mus musculus with 11 samples.

Results

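The Slc25 carriers are the proteins that move metabolites, nucleotides, ions and cofactors across the inner mitochondrial membrane, and the uncoupling proteins Ucp1, Ucp2 and Ucp3 belong to the same family. Members were chosen by name alone: each gene of the deposited count table whose symbol is Slc25a followed by digits, or Ucp1, Ucp2 or Ucp3. This gave 47 genes (44 named Slc25a and 3 named Ucp) of 36666 in the table. Mcart1 and Mcart6, older symbols of Slc25a51 and Slc25a53, stood outside the naming rule and were read separately.

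The study sequenced polyadenylated RNA from the cerebrum of 11 male C57/Bl6 mice, each 1 year old, with paired 100-bp reads from a random-primed library kit that does not mark the strand. The 7 mutator mice were homozygous for the D257A allele of Polg, which removes the proofreading of the mitochondrial DNA polymerase. The 4 controls were 3 WT/WT mice and 1 heterozygous WT/D257A mouse (mouse 237), so the control group did not lack the allele altogether. In the mice that carry it, the allele is present in all cells, and each library came from 1 mouse.

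Gene counts totalled 28249345 to 121182250 per control (median 52981946, n = 4) and 37821243 to 91219204 per mutator (median 55741011, n = 7). Counts per exon bin, a stretch of exon or part of one, were deposited for 3 WT/WT controls (24640608 to 105836056) and the 7 mutators (33279016 to 82975400), and none was available for mouse 237. The share of reads in no bin was 20.62 to 20.77% in those controls and 20.78 to 23.4% in the mutators. The groups did not overlap in this share, and the cause was not tested. Levels below are CPM, the count of a gene as a share of its library's TMM-scaled total. For exon bins, CPM is the share of a library's total bin counts, without TMM scaling. Where different genes are compared, CPM was divided by the length in kilobases of the longest coding transcript.

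As background, every carrier of this family is built from repeats of the same transmembrane fold and usually exchanges its substrate for another one. The ADP/ATP carriers and the phosphate carrier feed ATP synthase, and the aspartate/glutamate carriers take part in the malate-aspartate shuttle that brings reducing equivalents into neuronal mitochondria. In brain these carriers also supply glutamate, acetyl units and iron to pathways outside energy production.

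In the cerebrum of both groups the family was dominated by a few carriers. Per kilobase, the control level was 255 ± 9.08 CPM (SD, n = 4) for Slc25a4, the ADP/ATP carrier of heart, muscle and brain. Slc25a3, the phosphate carrier, had 217 ± 6.20 CPM per kilobase, and Slc25a5, the second ADP/ATP carrier, had 149 ± 7.70. Slc25a23, an ATP-Mg/phosphate carrier, followed with 110 ± 9.89 CPM per kilobase and Slc25a22, a glutamate carrier, with 73.0 ± 3.87. Each of these means stood further from the next than their SDs. With the length of all annotated exons in place of the longest coding transcript, Slc25a4 was still the highest, Slc25a5 was ranked 2 and Slc25a3 was ranked 4. At the other end, Ucp1, the uncoupling protein of brown fat, had 0.0285 ± 0.0266 CPM per kilobase in controls.

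The question was whether any carrier differed between mutators and controls. None passed the edgeR test across all genes: 0 of 43 members tested had an adjusted p under 0.05, where 223 of all 17983 genes tested (1.24%) did. At an unadjusted p under 0.05 there were 5 members (11.6%) beside 2834 of all genes (15.8%), 4 of the members lower in mutators (8.58% of all genes) and 1 higher (7.18%). These counts were 3 members beside 2175 genes without control 246, and 4 members beside 1792 genes without control 237. DESeq2 called 1 member, Slc25a35, beside 615 of 17202 genes (3.58%), and had 6 members at an unadjusted p under 0.05 beside 10.9% of 28093 genes. Without control mouse 205, edgeR called 1 member, Slc25a22, beside 412 genes (2.27%). The count over all genes moved by more than 1.5 times on leaving out control 205 (412), 237 (50), 239 (100) or 246 (93), or mutator 211 (125), 236 (142), 240 (112) or 248 (130), and on leaving out any of these but control 205 the family had 0 called. In bulk tissue, fewer cells of a type and less RNA per cell cannot be told apart, and this holds for every difference below.

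The members' log2 fold changes (mutator minus control) lay close to 0. Their median was 0.02 (23 above 0 and 20 below) beside 0.00 over all genes tested. It was -0.01 without control 237 (19 above and 25 below, of 44 tested), -0.00 without mutator 207 (21 above and 22 below) and 0.00 with the offset for GC content described below. Of the 43 members, 38 (88.4%) differed by less than 0.2 in either direction, beside 79.6% of all genes. Mice of the same group resembled each other: the members' median coefficient of variation was 5.35% in controls and 6.70% in mutators, beside 8.17% and 8.89% over all genes. Among those with a mean of at least 10 CPM it was 4.68% and 6.28% for members beside 5.77% and 6.24% for all genes, so at that level the mutators' carriers varied about as much as other genes. In 1 member, Slc25a35, all mutators lay below all controls, which was so in 256 of all genes (1.42%), and in 0 members did all mutators lie above all controls (1.20% of all genes; 2.62% in either direction). Among the 31 members with a mean of at least 10 CPM the median was -0.00, and 3 of them beside 2039 of 10309 such genes (19.8%) had an unadjusted p under 0.05.

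**Figure D1:**
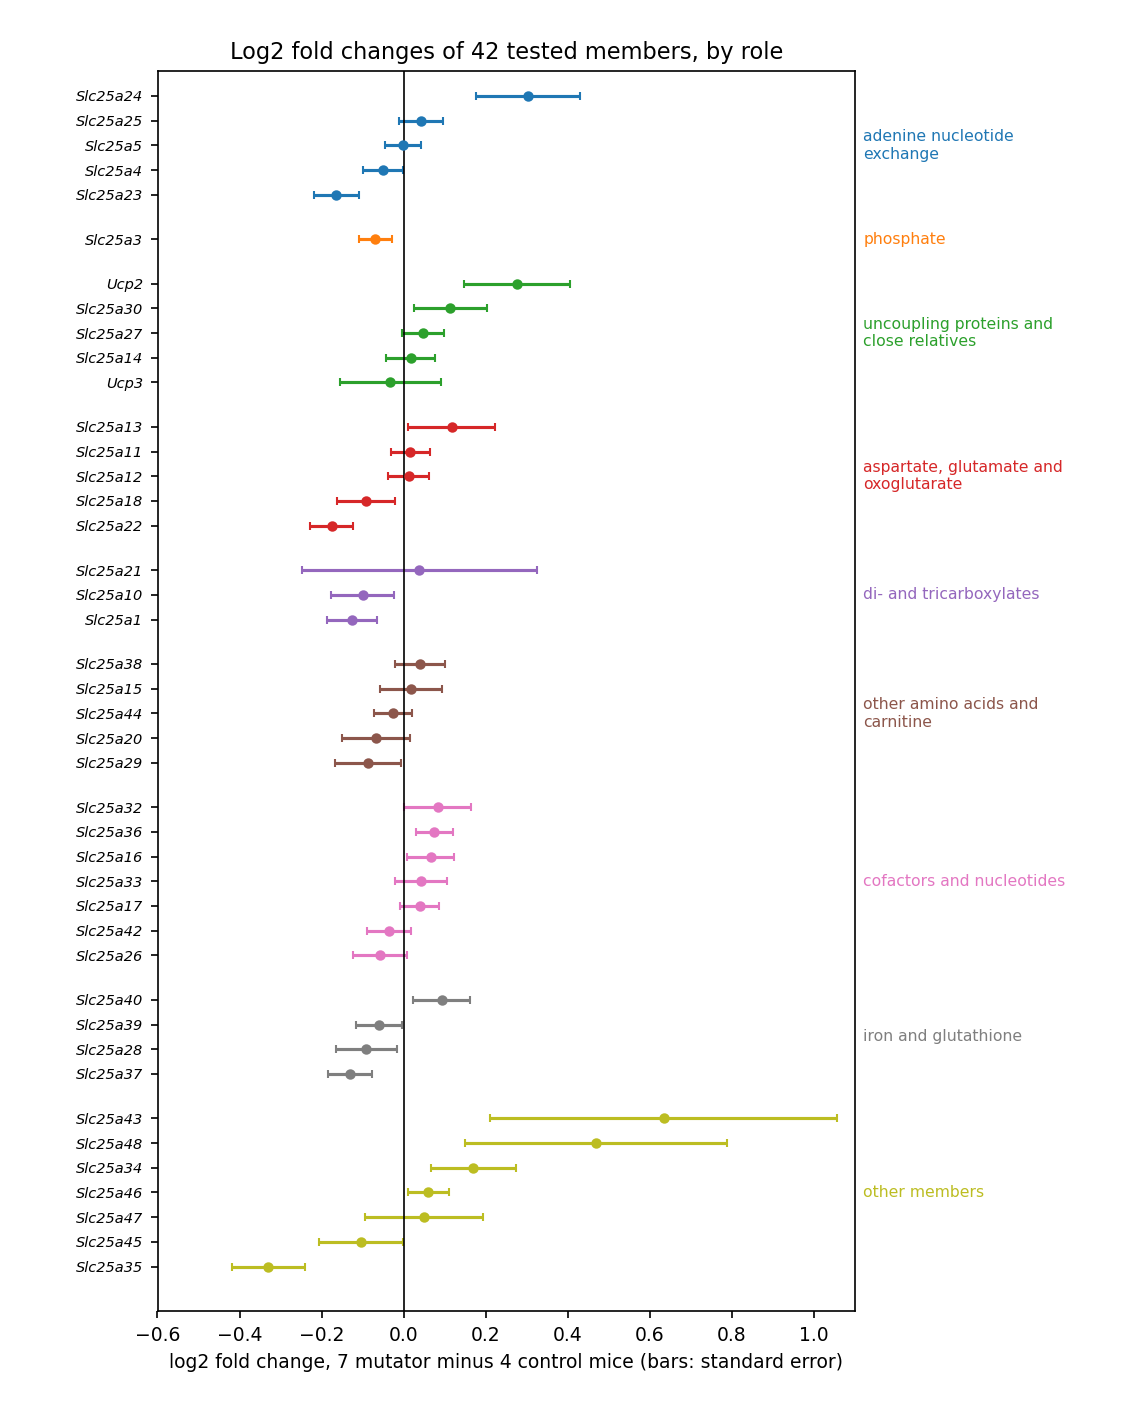
Log2 fold change (mutator minus control, 7 against 4 mice) of 42 of the 43 tested members (1 is not drawn), grouped by role; points are edgeR estimates and bars are standard errors. Most points lie within 0.2 of 0, and the widest bars belong to Slc25a43, Slc25a48 and Slc25a21, the tested members with the fewest counts.

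The ADP/ATP carriers exchange the ATP made in the matrix for cytosolic ADP. Slc25a4 had 475, 484, 489 and 516 CPM in the controls and 439 to 522 CPM (median 467) in the mutators. Slc25a5 had 174, 184, 186 and 198 CPM in the controls and 176 to 194 CPM (median 185) in the mutators. The groups overlapped in both genes, with 5 of 7 mutators below the lowest control for Slc25a4 and 0 of 7 for Slc25a5. Log2 fold changes were -0.05 (adjusted p = 0.653, 0.439 to 0.889 on leaving out 1 mouse) and -0.00 (adjusted p = 0.991), and neither passed the test. Slc25a4 was at -0.03 without control 246 and without mutator 248. The sign for Slc25a5 depended on the scaling: it was above 0 (0.0036) with upper-quartile factors, and also without control 246 (0.03) or mutator 236 (0.00243) or 248 (0.01). The log2 ratio of Slc25a4 to Slc25a5 within a mouse was 1.41 ± 0.05 (SD, n = 4) in controls and 1.36 ± 0.05 (n = 7) in mutators, a difference of -0.05 (two-sided exact permutation p = 0.139, adjusted over 6 pairs 0.418) that was -0.03 without mouse 237. Slc25a31, the ADP/ATP carrier of the testis, was near absent, with 0 to 15 counts per mouse, and did not pass the filter on low counts.

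The ATP-Mg/phosphate carriers set the size of the adenine nucleotide pool in the matrix and respond to calcium. Slc25a23 (ENSMUSG00000046329, chr17:57183134-57199286, minus strand, mm9) had 331, 363, 370 and 412 CPM in the controls and 306 to 354 CPM (median 324) in the mutators. The mutators sat at the low end, 4 of 7 below the lowest control, and the highest control was the heterozygous mouse 237. The log2 fold change was -0.16 (SE 0.055, adjusted p = 0.141, 0.0922 to 0.540 on leaving out 1 mouse). It was -0.11 without mouse 237 and -0.10 with an offset for GC content, and it did not pass the test in any of these. Slc25a24 went the other way at a much lower level: 2.37, 2.58, 3.06 and 3.44 CPM in the controls and 2.96 to 3.97 CPM (median 3.73) in the mutators. Of 7 mutators, 5 were above the highest control, and the log2 fold change of 0.30 (SE 0.127) did not pass (adjusted p = 0.243, 0.112 to 0.624 on leaving out 1 mouse). It was 0.24 with an offset for GC content (edgeR, adjusted p = 0.359). Slc25a25, the third carrier of this kind, differed by 0.04 (0.08 with an offset for GC content).

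Within a mouse, the log2 ratio of Slc25a23 to Slc25a25 was 2.30, 2.33, 2.39 and 2.70 in the controls and 2.07 to 2.35 (median 2.25) in the mutators. Of 7 mutators, 6 were below the lowest control, and mouse 237 again had the highest value. The difference was -0.20 (two-sided exact permutation p = 0.0242, where 0.00606 is the smallest the 330 splits can give; adjusted over 6 pairs 0.145, 0.0571 to 0.400 on leaving out 1 mouse). Without mouse 237 the difference was -0.12, and from summed exon bin counts, which lack that mouse, it was -0.14 (two-sided exact permutation p = 0.0167, the smallest the 120 splits can give; adjusted over 6 pairs 0.100). In the gene counts this pair had the lowest p of the 6 pairs of related carriers compared and did not pass after adjustment. Slc25a41, which lies 2057 bases from Slc25a23 on chromosome 17, had 0 to 19 counts per mouse and was not tested.

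Slc25a3 carries the phosphate that ATP synthase uses. It had 336, 350, 351 and 360 CPM in the controls and 318 to 349 CPM (median 334) in the mutators. The mutators lay slightly lower, 4 of 7 below the lowest control, with a log2 fold change of -0.07 (SE 0.041) that did not pass the test (adjusted p = 0.431, 0.347 to 0.680 on leaving out 1 mouse). With an offset for GC content the log2 fold change was -0.08 (edgeR, adjusted p = 0.266).

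Slc25a3 is also the member with a well-known pair of mutually exclusive exons, 3A, used mainly in heart and muscle, and 3B, used in most tissues including brain. The annotation places exon 3A at chr10:90584952-90585076 (125 bases, in 1 of 3 coding transcripts) and exon 3B at chr10:90584667-90584788 (122 bases, in 2 of 3), both on the minus strand of mm9. They are shown because the counts below separate them by these bases. Aligned from their 3′ ends without gaps, 77 of 122 positions (63.1%) are the same and 45 differ. Capitals mark the bases that differ and the 3 extra bases at the start of exon 3A.
exon 3A: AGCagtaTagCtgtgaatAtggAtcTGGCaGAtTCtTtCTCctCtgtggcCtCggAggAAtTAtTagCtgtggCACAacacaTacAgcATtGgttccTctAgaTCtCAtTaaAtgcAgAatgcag
exon 3B: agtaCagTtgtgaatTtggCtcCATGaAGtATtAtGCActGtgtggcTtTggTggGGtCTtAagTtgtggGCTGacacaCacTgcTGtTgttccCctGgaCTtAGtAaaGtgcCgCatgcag

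Exon 3B was the form read in these brains. Its bin held 1052, 2409 and 4456 counts in the 3 WT/WT controls and 1326 to 3030 (median 2029) in the mutators. The main bin of exon 3A (108 of its bases) held 88, 160 and 359 counts in those controls and 100 to 321 (median 140) in the mutators. The stretch of 99 bases next to exon 3A, outside the coding transcripts with either exon, held nearly as many: 84, 179 and 391 in the controls and 103 to 352 (median 170) in the mutators. The ratio of exon 3A to that stretch was 0.894 to 1.05 in controls and 0.782 to 0.971 in mutators, so exon 3A was read about as often as the neighbouring stretch, which the annotation includes only in retained-intron and nonsense-mediated decay transcripts. As a share of both exon bins, exon 3A had 7.46% in mouse 205 (95% Wilson interval 6.75 to 8.23%), 6.23% in mouse 239 (5.36 to 7.23%) and 7.72% in mouse 246 (6.31 to 9.41%), and 5.70 to 9.58% (median 7.01%) in the mutators. The intervals cover counting error only. The control shares lie inside the mutators' range. A sequenced fragment counts in each bin it touches, so the shares are not shares of transcripts. In the limma test of exon use the log2 difference was -0.04 for exon 3B and 0.06 for the main bin of exon 3A, each with an adjusted p of 1.00, and the sign for exon 3A turned to -0.02 without control 239 or mutator 248. For exon 3B it ran from -0.0609 to -0.0137 on leaving out 1 mouse.

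**Figure D2:**
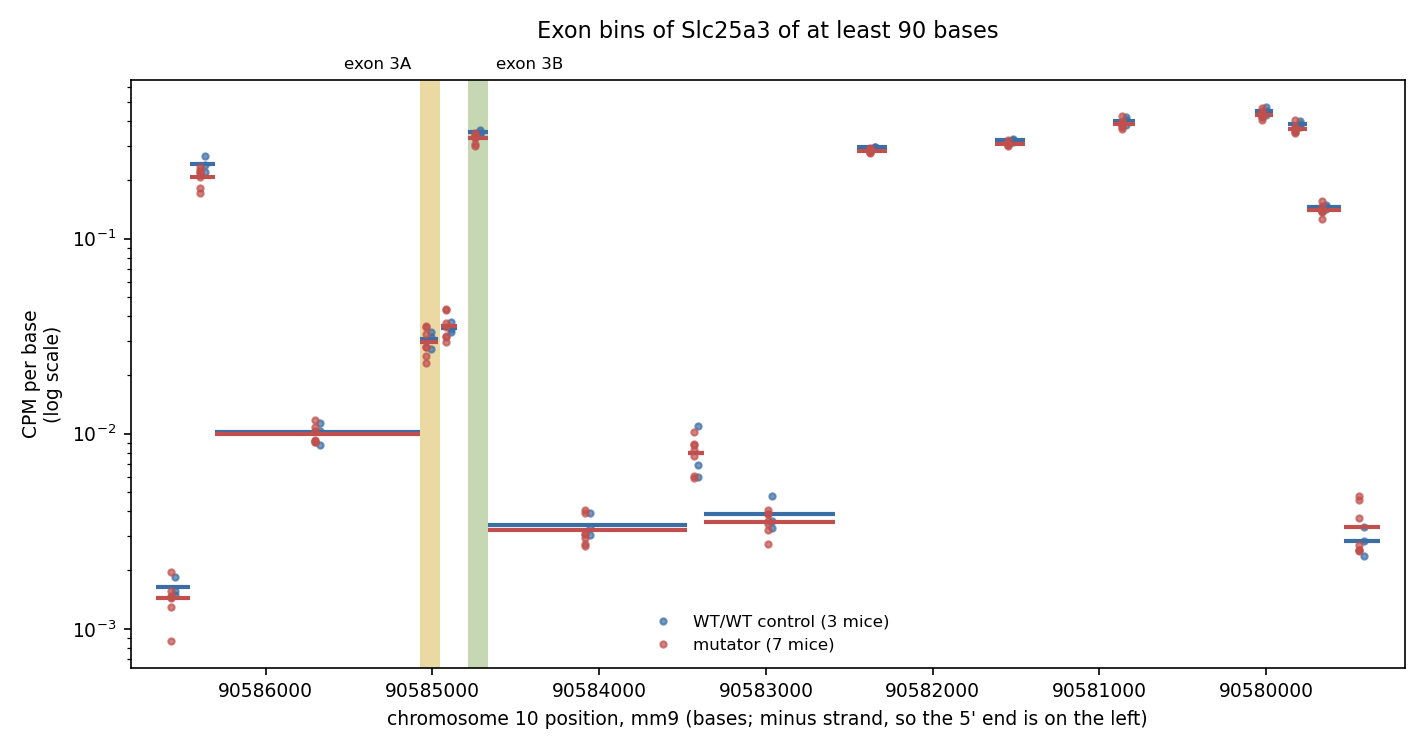
CPM per base (log axis) in the 16 exon bins of Slc25a3 of at least 90 bases, by position on chromosome 10 (mm9, minus strand, 5′ end on the left). Dots are mice (3 WT/WT controls, 7 mutators), horizontal lines are group means over the width of the bin, and shading marks exons 3A and 3B. Exon 3B is at the height of the other coding exons, and exon 3A is near the height of the stretch beside it in both groups.

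The uncoupling proteins Ucp1 to Ucp3 and their relatives Slc25a14, Slc25a27 and Slc25a30 let protons or other ions re-enter the matrix or carry small metabolites. Ucp2 had 20.4, 20.6, 21.1 and 22.2 CPM in the controls and 20.9 to 33.0 CPM (median 22.9) in the mutators. The spread lay on the side of the mutators: mice 217, 236 and 249 had 28.6, 30.6 and 33.0 CPM, and the other 4 stood near the controls. The coefficient of variation was 19.6% in mutators and 3.81% in controls. The log2 fold change of 0.28 (SE 0.129) did not pass (adjusted p = 0.327, 0.258 to 0.616 on leaving out 1 mouse). Ucp3, mainly a muscle gene and 6905 bases from Ucp2 on chromosome 7, had 3.26, 3.49, 3.80 and 3.97 CPM in the controls and 2.85 to 4.24 CPM (median 3.39) in the mutators. The mutators spread beyond the controls on both sides, with a log2 fold change of -0.03 (adjusted p = 0.929) whose sign turned without control 239 (0.02) or mutator 248 (0.0012) or 249 (0.01).

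The brain-enriched relatives Slc25a14 and Slc25a27 varied less than Ucp2 among the mutators. Slc25a14 had 34.0, 35.6, 37.1 and 39.3 CPM in the controls and 31.9 to 39.6 CPM (median 37.6) in the mutators. Slc25a27 had 50.5, 53.3, 54.0 and 55.0 CPM in the controls and 50.1 to 59.2 CPM (median 55.8) in the mutators. For Slc25a27 5 of 7 mutators were above the highest control, and for Slc25a14 1 was. Log2 fold changes were 0.02 (adjusted p = 0.922) and 0.05 (adjusted p = 0.694), and Slc25a27 was at 0.02 without control 239 and 0.03 without mutator 249. The sign for Slc25a14 turned with an offset for GC content (-0.00586) and without control 237 (-0.01) or mutator 248 (-0.000309). Slc25a30 differed by 0.11, and Ucp1 had 0 to 3 counts per mouse and was not tested.

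The carriers of aspartate, glutamate and oxoglutarate serve the malate-aspartate shuttle and glutamate handling. Slc25a22 (ENSMUSG00000019082, chr7:148615638-148623791, minus strand), a glutamate/proton symporter, had 190, 205, 210 and 215 CPM in the controls and 167 to 201 CPM (median 179) in the mutators. The mutators were lower, 6 of 7 below the lowest control, and only mouse 249 overlapped. The log2 fold change was -0.18 (SE 0.052), and it missed the threshold (adjusted p = 0.0951, 0.0467 to 0.353 on leaving out 1 mouse). It passed without control 205 (log2 fold change -0.21, adjusted p = 0.0467), and without mouse 237 it was -0.15 (adjusted p = 0.353). With an offset for GC content it was -0.10 (adjusted p = 0.255). Slc25a18, the glutamate carrier found mainly in astrocytes, had 55.0, 55.2, 57.2 and 62.7 CPM in the controls and 46.6 to 60.9 CPM (median 55.5) in the mutators. Here 3 of 7 mutators were below the controls, and the log2 fold change was -0.09 (adjusted p = 0.559), with -0.05 without mouse 237, -0.06 without mutator 248 or 249 and -0.03 with the offset. The log2 ratio of Slc25a22 to Slc25a18 was 1.83 ± 0.06 (n = 4) in controls and 1.76 ± 0.18 (n = 7) in mutators (two-sided exact permutation p = 0.436, adjusted over 6 pairs 0.655), a difference of -0.08 that was -0.04 without mutator 207 and -0.14 without mutator 249.

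Slc25a12, the aspartate/glutamate carrier of neurons, had 168, 175, 181 and 185 CPM in the controls and 163 to 197 CPM (median 178) in the mutators. Slc25a13, its counterpart of liver, had 3.64, 4.24, 4.57 and 5.09 CPM in the controls and 4.28 to 5.08 CPM (median 4.91) in the mutators. The groups overlapped in both genes. Log2 fold changes were 0.01 (adjusted p = 0.936) for Slc25a12 and 0.12 (adjusted p = 0.637) for Slc25a13, which was 0.03 without control 239 and 0.18 without control 246. The sign for Slc25a12 turned with an offset for GC content (-0.02) and without control 237 or mutator 207 (-0.01 each). Their log2 ratio was 5.34 ± 0.22 (n = 4) in controls and 5.23 ± 0.17 (n = 7) in mutators (two-sided exact permutation p = 0.382, adjusted over 6 pairs 0.655), a difference of -0.10 that was -0.01 without control 239 and -0.18 without control 246. Slc25a11, the oxoglutarate/malate carrier and the other arm of the shuttle, differed by 0.02 (0.06 with that offset).

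Slc25a1, the citrate carrier, which exports acetyl units for lipid synthesis, had 31.7, 32.7, 33.6 and 34.4 CPM in the controls and 25.9 to 33.0 CPM (median 31.2) in the mutators. Of 7 mutators, 5 were below the lowest control, with mouse 248 the lowest. The log2 fold change was -0.13 (SE 0.060) and did not pass (adjusted p = 0.319, 0.231 to 0.654 on leaving out 1 mouse). With an offset for GC content it was -0.03. The dicarboxylate carrier Slc25a10 differed by -0.10 (0.01 with that offset) and the oxodicarboxylate carrier Slc25a21, at 0.40 CPM in controls, by 0.04 (-0.02 with it). Of the 6 carriers of other amino acids and carnitine, 5 were tested, with log2 fold changes from -0.09 (Slc25a29, 0.02 with the offset) to 0.04 (Slc25a38, 0.10 with it). The remaining one, the ornithine carrier Slc25a2, had 1 to 15 counts per mouse.

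The 8 carriers of cofactors and nucleotides were all tested, with 5 above 0 and 3 below, the highest being 0.08 (Slc25a32, folate and FAD; 0.01 with an offset for GC content). Slc25a36, a pyrimidine nucleotide carrier, had the lowest p among them, with 77.2, 79.4, 79.5 and 83.6 CPM in the controls and 80.6 to 88.7 CPM (median 84.7) in the mutators. The mutators sat at the upper end, 4 of 7 above the highest control. Its log2 fold change of 0.07 (SE 0.045) did not pass (adjusted p = 0.433, 0.307 to 0.737 on leaving out 1 mouse), and with an offset for GC content it was -0.02. The log2 ratio of Slc25a36 to its relative Slc25a33 was 1.58, 1.66, 1.73 and 1.83 in controls and 1.53 to 1.85 (median 1.77) in mutators, a difference of 0.03 (two-sided exact permutation p = 0.642, adjusted over 6 pairs 0.771), and -0.01 without control 246.

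Iron enters mitochondria through the mitoferrins, Slc25a37 (mitoferrin 1, needed for haem in red cell precursors) and Slc25a28 (mitoferrin 2). Slc25a37 had 36.8, 37.6, 38.6 and 40.1 CPM in the controls and 32.5 to 37.4 CPM (median 35.5) in the mutators. Of 7 mutators, 5 were below the lowest control and the other two overlapped with it. The log2 fold change was -0.13 (SE 0.053) and did not pass (adjusted p = 0.229, 0.179 to 0.472 on leaving out 1 mouse). Slc25a28 had 25.3, 26.9, 27.7 and 28.5 CPM in the controls and 21.4 to 31.3 CPM (median 25.2) in the mutators. Mutator 207 was the highest of all mice and mutator 248 the lowest. Its log2 fold change was -0.09 (adjusted p = 0.597), with -0.15 without mutator 207, -0.05 without mutator 248 and 0.03 with an offset for GC content. The log2 ratio of Slc25a28 to Slc25a37 was -0.50 ± 0.06 (n = 4) in controls and -0.46 ± 0.23 (n = 7) in mutators (two-sided exact permutation p = 0.818, adjusted over 6 pairs 0.818), with the difference of 0.03 at -0.03 without mutator 207. The carriers linked to glutathione import, Slc25a39 and Slc25a40, differed by -0.06 and 0.09 (0.04 and 0.01 with that offset).

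The remaining 7 members have roles that are less settled. Slc25a35 (ENSMUSG00000018740, chr11:68781633-68787867, plus strand) is a carrier without an established substrate, and it had the lowest p of the family. It had 6.68, 7.16, 8.00 and 8.50 CPM in the controls and 5.33 to 6.51 CPM (median 6.03) in the mutators. All mutators were below all controls, by a small margin, and the highest control was mouse 237. The log2 fold change was -0.33 (SE 0.089). In edgeR it missed the threshold (adjusted p = 0.0700, 0.0617 to 0.322 on leaving out 1 mouse, 0.322 without mouse 237). In DESeq2 it passed (log2 fold change -0.33, adjusted p = 0.0137, where the other settings tried gave up to 0.0921).

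The gene shares 1151 exonic bases with Rangrf on the opposite strand, and reads of this library kit do not tell the strands apart. Rangrf itself had 3 to 12 counts per mouse in the gene counts. How reads in the shared bases were assigned was not tested, so these counts do not set the level of Rangrf. In the exon counts, which lack mouse 237, the 12 bins of Slc25a35 summed to 4.60, 4.89 and 5.80 CPM in the WT/WT controls and 4.43 to 4.78 CPM (median 4.54) in the mutators. The log2 difference was -0.15 (two-sided exact permutation p = 0.0667, where 0.0167 is the smallest the 120 splits can give). The gene counts without mouse 237 gave a log2 fold change of -0.27 in edgeR. In the 10 bins that do not overlap Rangrf, an alternative chosen after seeing the data, the values were 3.27, 3.55 and 4.46 CPM in the controls and 3.24 to 3.73 CPM (median 3.48) in the mutators. The groups overlapped in both sets of bins, and in the 10 bins the log2 difference was -0.10 (two-sided exact permutation p = 0.433).

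Slc25a34, the nearest relative of Slc25a35, had 6.71, 7.56, 8.25 and 9.83 CPM in the controls and 8.03 to 10.4 CPM (median 8.67) in the mutators. The groups overlapped, with 2 of 7 mutators above the highest control, and the log2 fold change was 0.17 (SE 0.104, adjusted p = 0.448, 0.368 to 0.747 on leaving out 1 mouse). It was 0.08 without control 205 and 0.28 without control 237. The largest log2 fold change in the family, 0.63 for Slc25a43, rested on 2 to 35 counts per mouse (SE 0.423) and did not pass. Slc25a46, a protein of the outer membrane despite its name, differed by 0.06 (-0.02 with an offset for GC content). Under their older symbols, Slc25a51 and Slc25a53 differed by 0.04 and 0.00 (adjusted p = 0.691 and 0.983).

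**Figure D3:**
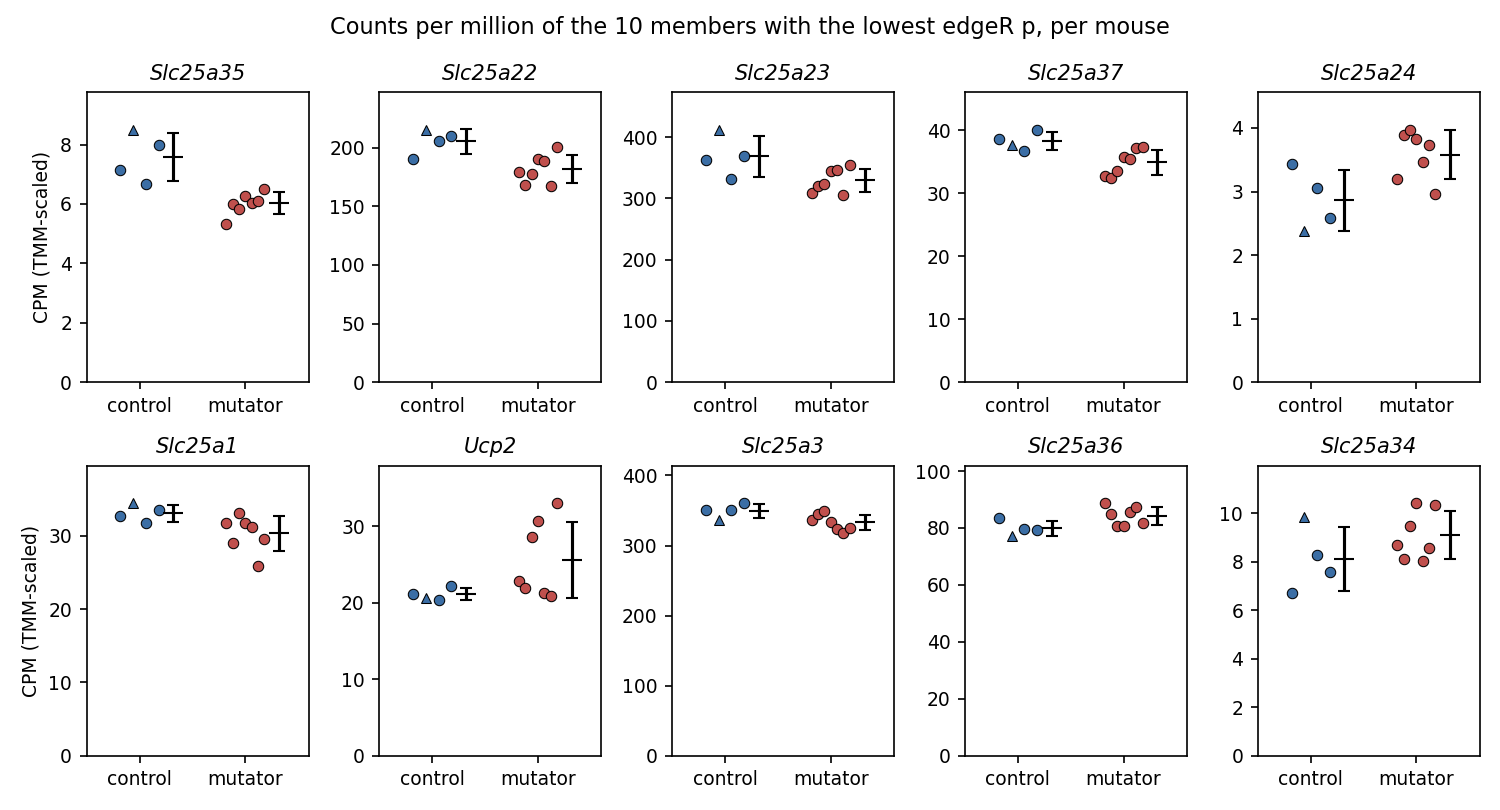
CPM (TMM-scaled, axes from 0) per mouse of the 10 members with the lowest edgeR p, in 4 controls (blue; the triangle is the WT/D257A mouse 237) and 7 mutators (red); black bars are mean and SD. Slc25a35 is the gene in which the groups do not overlap, and Ucp2 shows 3 mutators apart from the rest.

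Members differed in base composition, and their log2 fold changes followed it. Across members, Spearman's rho between log2 fold change and GC content of the longest coding transcript was -0.424 (43 members), and it was -0.426 across 15556 genes. With a mean of at least 10 CPM it was -0.680 across 31 members and -0.591 across 10037 genes. Genes are not independent replicates, and all points share the same 11 libraries. The libraries themselves differed: the slope of log2 level on GC content, per 10 percentage points, was -0.0214, 0.168, 0.0354 and 0.0626 in control mice 205, 237, 239 and 246, and -0.147 to 0.0454 in the mutators, with mouse 237 the highest and mutator 248 the lowest.

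With an offset for GC content per mouse, an alternative chosen after seeing the data, 0 members were called by edgeR beside 155 of 15556 genes (0.996%), and 7 members had an unadjusted p under 0.05 beside 14.2% of genes. The offset is fitted on GC content, so by its construction it moves members according to their GC content. All 21 members above the family's median GC content took a higher log2 fold change, and 16 of the 21 below it took a lower one. Slc25a22 (57.8% GC) went from -0.18 to -0.10 and Slc25a23 (56.4% GC) from -0.16 to -0.10. Slc25a34 (58.0% GC) went from 0.17 to 0.25 and Slc25a1 (59.1% GC) from -0.13 to -0.03. The members with the lowest p were Slc25a35 (53.2% GC) at -0.30 (adjusted p = 0.0921), Slc25a37 (48.7% GC) at -0.14 (adjusted p = 0.164) and Slc25a34 (adjusted p = 0.193). Slc25a22 had an adjusted p of 0.255, and Ucp2 (55.0% GC) was at 0.32 (adjusted p = 0.256). The sign turned in 13 of 43 members, from -0.10 (Slc25a10) to 0.07 (Slc25a36) without the offset. With the offset, Spearman's rho between log2 fold change and GC content was 0.183 across members and 0.00421 across all genes. The fit over all genes brings the second value near 0 by its construction. The part of base composition in the remaining differences was not tested.

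**Figure D4:**
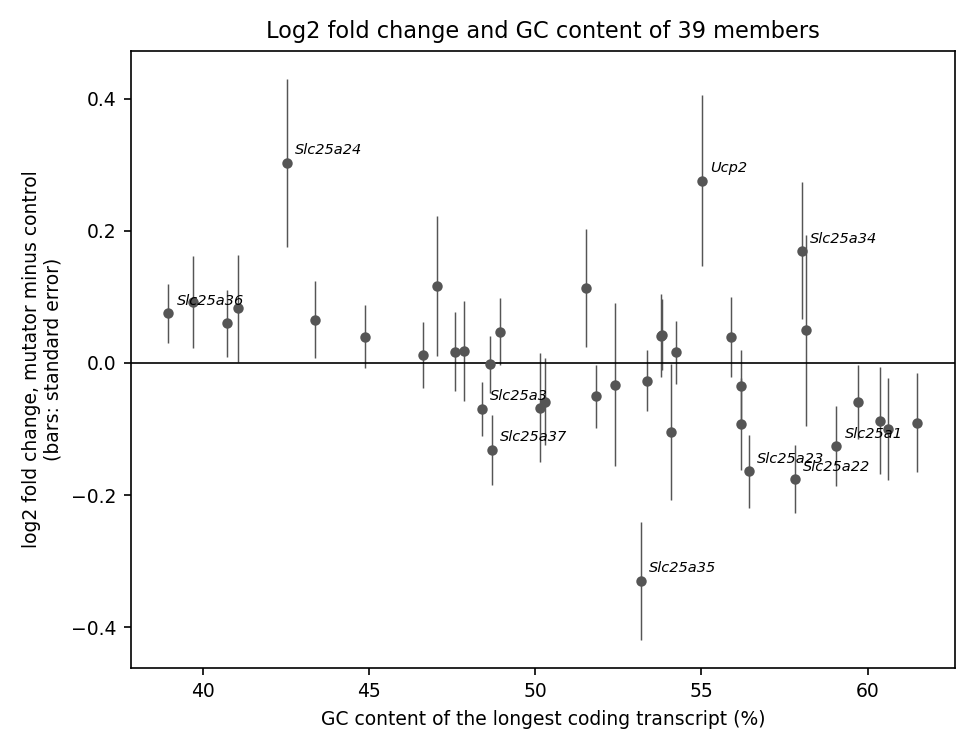
Log2 fold change (mutator minus control; bars are standard errors) against GC content of the longest coding transcript for 39 of the 40 tested members with a standard error under 0.2 (1 is not drawn). Members with a higher GC content tend to lie lower, and Slc25a35 lies below the others.

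Exon use within members was compared in the 10 mice with exon counts. Of 548 member bins in 40 gene groups, limma called 0, where 22 of all 206930 bins tested (0.0106%) were called. The member bins include 7 of a group that merges Slc25a34 with another gene. At an unadjusted p under 0.05 there were 17 member bins (3.10%) beside 2.65% of all bins. That count was 26 (4.70% beside 3.61%) without control 205, 8 (1.45% beside 1.89%) without control 239 and 7 (1.29% beside 2.30%) without mutator 240. Of these 17 bins, 14 were lower in mutators and 3 higher, in 12 genes, beside 3367 lower (1.63% of all bins) and 2124 higher (1.03%) over all bins. With edgeR diffSpliceDGE, 0 member bins were called and 11 had an unadjusted p under 0.05, beside 48 bins called (0.0232%) and 1.91%. Over all bins, the limma count moved by more than 1.5 times without control 205 (276) or 239 (2), or mutator 207 (88), 236 (47), 240 (9) or 248 (11).

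The member bin with the lowest p lay in the 5′ UTR of Slc25a1 (chr16:17928223-17928302, minus strand, 80 bases). It had 5, 15 and 43 counts in the controls and 1 to 14 (median 6) in the mutators. These are few counts, and control 239 with 43 stood far above the other mice. The log2 difference in use was -1.45 (SE 0.40) and did not pass (adjusted p = 0.450). It passed without control 205 (-2.53, adjusted p = 0.000648), the only library whose omission gave a called member bin (276 of 209437 bins, 0.132%, were called there), and adjusted p ran up to 0.816 over the 6 omissions in which the bin passed the filter.

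Some members have near copies in the genome that could share reads. With at least 95% identity over 200 bases elsewhere in the genome, Slc25a5 had 2 such places (up to 1240 bases), Slc25a40 had 1 (1535 bases), Slc25a36 had 1 (952 bases) and Slc25a35 had 4 (255 bases). Slc25a46, Slc25a12 and Ucp2 also had short ones of up to 304 bases. Of the 47 members, 10 share exonic bases with another gene annotated in GENCODE M1, and Slc25a34 is not among them.

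Genes that work beside the carriers were read from lists. Over all genes tested by edgeR, 50.4% lay above 0. At an unadjusted p under 0.05, 7.18% of them were higher and 8.58% lower. These shares also stand beside the counts of the marker lists below. Of 20 other genes of mitochondrial membrane transport, edgeR called 0, with 7 above and 13 below 0, a median log2 fold change of -0.02, and 1 higher and 4 lower at an unadjusted p under 0.05. The lowest p was that of Sfxn5, a sideroflexin, at -0.18 (SE 0.052, adjusted p = 0.0951, 0.0173 to 0.346 on leaving out 1 mouse), and it passed without mutator 217 (-0.21). Of 24 enzymes that use what the carriers move, 23 were tested (Otc was not) and edgeR called 0, with 6 above and 17 below 0, a median of -0.05, and 1 higher and 6 lower at an unadjusted p under 0.05. The lowest p was that of Ckb, brain creatine kinase, at -0.18 (SE 0.055, adjusted p = 0.101, 0.0485 to 0.383 on leaving out 1 mouse), and it passed without control 205 (-0.22). With an offset for GC content Ckb was at -0.08 (adjusted p = 0.324).

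Markers of neurons, astrocytes and oligodendrocytes were abundant in every library, as the label cerebrum asks. Of 6 neuronal markers 5 were in the table (Rbfox3 was not) and summed to 5324 to 5668 CPM in controls and 5180 to 5562 CPM in mutators, with Snap25 the most abundant (2179 CPM). The 6 astrocyte markers summed to 3781 to 4116 CPM in controls and 3540 to 3865 CPM in mutators, with Slc1a2 the most abundant (2760 CPM). The 6 oligodendrocyte markers summed to 4854 to 5564 CPM in controls and 4744 to 6667 CPM in mutators, led by Mbp (3038 CPM). In these lists edgeR called 0 genes, with 1 higher and 1 lower, 2 higher and 1 lower, and 0 higher and 3 lower at an unadjusted p under 0.05, and DESeq2 called Gjb6 and Mag among the genes named here. The lowest p belonged to Slc17a7 (log2 fold change -0.21, adjusted p = 0.0995, 0.0366 to 0.422 on leaving out 1 mouse), Gjb6 (0.26, adjusted p = 0.0799) and Mag (-0.31, adjusted p = 0.0558). Other markers of the same lists went the other way: Gad2 was at 0.14 beside Slc17a7, Slc1a2 at -0.13 and Aqp4 at -0.18 beside Gjb6, and Mbp at 0.13 and Mobp at 0.15 beside Mag. The medians of the lists were -0.00, -0.05 and -0.21. Slc17a7, which loads glutamate into synaptic vesicles, passed without control 205 (-0.26) and was at -0.12 with an offset for GC content (adjusted p = 0.235), and Mag passed without control 205 (-0.35) or mutator 217 (-0.37).

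Of 6 microglial markers, all lay below 0 and 4 had an unadjusted p under 0.05, with summed levels of 202 to 255 CPM in controls and 190 to 225 CPM in mutators (Csf1r, 87.4 CPM, the most abundant). Cx3cr1 had the lowest p of them (-0.20, adjusted p = 0.104). The 4 endothelial markers summed to 119 to 144 CPM in controls and 126 to 176 CPM in mutators, 2 of them higher at an unadjusted p under 0.05, and Flt1, also the most abundant (82.8 CPM), was at 0.36 (adjusted p = 0.0615, 0.00618 to 0.203 on leaving out 1 mouse). It passed without mutator 207 (0.41), 217 (0.38) or 248 (0.31), and in DESeq2. The other endothelial markers did not all follow Flt1: Pecam1 was at 0.20, Cdh5 at 0.00 and Cldn5 at -0.08. For Ucp2 and Slc25a24, whose values were higher in several mutators, and for Slc25a22 and Slc25a35, whose values were lower, the part of the cell mix was not tested.

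Markers of tissues known for some carriers were also read. Erythroid markers, beside the mitoferrin Slc25a37, summed to 57.6 to 198 CPM in controls and 90.1 to 258 CPM in mutators (Hbb-b1, 70.6 CPM, the most abundant), all 5 tested above 0 and none with an unadjusted p under 0.05. Alas2 was at 1.02 (adjusted p = 0.334), and Slc4a1 had too few counts to test. Choroid plexus markers summed to 499 to 678 CPM in controls and 514 to 735 CPM in mutators, led by Ttr (589 CPM), with 1 lower at an unadjusted p under 0.05 (Folr1, -0.30, adjusted p = 0.280, 0.127 to 0.752 on leaving out 1 mouse), which was at -0.17 without mouse 237. Kl was also below 0 (-0.12), and Ttr (0.14) and Aqp1 (0.25) went the other way. Skeletal muscle markers, beside Slc25a4 and Ucp3, summed to 6.19 to 8.69 CPM in controls and 5.26 to 6.46 CPM in mutators. All 3 lay below 0, and Acta1 (5.90 CPM) was at -0.40 (adjusted p = 0.0584, 0.0151 to 0.211 on leaving out 1 mouse). It passed without control 205 (-0.50) or mutator 207 (-0.42), in DESeq2 and with no filter on low counts. Of the brown fat markers beside Ucp1, Adipoq and Fabp4 had too few counts to test, and Cidea (2.28 CPM) was at 0.30 (adjusted p = 0.251). In none of these lists did edgeR call a gene.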

How the data were processed

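RNA from 11 cerebra was sequenced, and the authors aligned reads (CASAVA 1.7.1, TopHat2 2.0.6, Bowtie2 2.0.2.0, mm9) and deposited raw counts per gene and per exon bin (HTSeq 0.5.3p9, Ensembl NCBIM37 genes). Coordinates, transcript lengths and GC content came from GENCODE M1 on the same build. Other deposited values were read totals per mouse. The deposited DESeq and DEXSeq tables hold the authors' own comparison and were not used, nor were protein values.

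Mutators (7) were compared with controls (4) in edgeR 4.0.16 (filterByExpr, TMM, robust quasi-likelihood test) over all 17983 genes that passed the filter, with Benjamini-Hochberg adjustment and a threshold of 0.05. Exon bins were compared in limma 3.58.1 (voom, diffSplice; 7 against 3 mice). Log2 ratios of 6 pairs of carriers (prior count of 2) were compared by exact permutation in Python 3.11.15 with SciPy 1.17.1. Alternatives were DESeq2 1.42.0, RLE and upper-quartile factors, no filter or a mean count of at least 10, no mitochondrial genes, a prior count of 0.5 or summed exon bin counts for the ratios, edgeR diffSpliceDGE, and leaving out each mouse. An offset for GC content (lowess, span 0.3, 86.5% of tested genes) and the bins of Slc25a35 outside Rangrf were chosen after seeing the data. Near copies were found with blastn 2.17.0 and bases were read with samtools 1.23.1. R was version 4.3.3. The tests were tested on simulated data, where DESeq2 made a larger share of false calls than edgeR. For exon bins, limma diffSplice made a larger share of false calls than edgeR diffSpliceDGE.

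Named members were those with an adjusted p under 0.05, the 10 with the lowest p, 15 listed by role whatever their values, and those that did not pass the filter; outside the family, the gene with the lowest p of each list; and for exon bins the one with the lowest p and exons 3A and 3B of Slc25a3. Other members named by their log2 fold change were chosen after their values were seen. The members and lists were chosen with earlier results of these data known. A count did not stand for the same unit in both kinds of file: in genes with a single bin the gene count was 1.81 to 1.92 times the bin count (median per mouse, 10 mice). Gene counts per aligned read were 0.744 to 0.775 in 10 mice. Results for 2 genes are not reported, and their values stay within the counts and sums.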

Additional observations from a re-analysis of the deposited data

Results flagged for a closer look

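Chance sets a sample apart in about 1 in 20 groups, and of 60 groups of values checked 3 had such a sample. Slc25a31 had 0.184 CPM in control mouse 237, away from the other 3 controls at 0.00818 to 0.0363 CPM, all from few counts. The log2 ratio of Slc25a28 to Slc25a37 was -0.40 in control mouse 237, apart from the other 3 controls at -0.54 to -0.52 and inside the mutators' range. Gene counts per aligned read were 3.00 in mutator mouse 248, where the other 6 mutators had 0.744 to 0.772; the deposited totals give this mouse 30449029 aligned reads and 91219204 gene counts, and 76.29% of its reads aligned.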

How the results depend on the processing

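Of the 43 members tested, 0 changed direction under DESeq2, RLE factors, another filter or without mitochondrial genes. Upper-quartile factors turned Slc25a5 to 0.0036. The GC offset turned 13 members, among them Slc25a36 (-0.0187), Slc25a14 (-0.00586), Slc25a12 (-0.0193), Slc25a28 (0.0277), Slc25a10 (0.01), Slc25a29 (0.02), Slc25a39 (0.04), Slc25a46 (-0.02) and Slc25a21 (-0.02). DESeq2 called 615 genes and 1 member, and no filter on low counts 346 genes. In exon bins diffSpliceDGE called 48. The causes were not tested.

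Leaving out 1 mouse gave 50 to 412 genes called, 0 to 1 members, 2 to 276 bins and 0 to 1 member bins. Log2 ratios differed by -0.07 to -0.03 (Slc25a4/Slc25a5), -0.18 to -0.01 (Slc25a12/Slc25a13), -0.14 to -0.04 (Slc25a22/Slc25a18), -0.0323 to 0.0903 (Slc25a28/Slc25a37, below 0 without mutator 207), -0.25 to -0.12 (Slc25a23/Slc25a25) and -0.00581 to 0.0775 (Slc25a36/Slc25a33, below 0 without control 246). Among 19 members named by the rule and tested, log2 fold changes that turned ran from -0.0286 to 0.0301 (Slc25a5), -0.0905 to 0.0170 (Ucp3), -0.0136 to 0.0517 (Slc25a14) and -0.0127 to 0.0345 (Slc25a12). For Slc25a3 the 2 bins of exon 3A ran from -0.0177 to 0.0986 and -0.0223 to 0.120. With 4 controls, 1 of them heterozygous, differences between WT/WT and WT/D257A cannot be told apart from those between mice. No paired analysis was possible because the labels match no mutator with a control.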
